A study of Mus musculus with 4 samples.

Results

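Glycolysis and hypoxia response genes were compared between the dorsal and ventral regions of the mouse tracheoesophageal anlage at E9.75. The list held 36 genes, namely enzymes from hexokinase to lactate dehydrogenase, regulators of pyruvate entry into the mitochondrion, the hypoxia-inducible factor (HIF) subunits with their prolyl hydroxylases, and genes that HIF induces. A gene was included when at least 1 Affymetrix probe set carried its symbol alone in the platform annotation. This held for 34 of the 36 genes, with 66 probe sets, out of 18194 such genes in all. *Gpi1*, the isomerase of the second glycolytic step, and *Eno1*, the general enolase, had no such probe set and were not analysed here.

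Both groups were BALB/c embryos, and the labels list no treatment or engineered allele. The anlage is still a single foregut tube at this age, from which the trachea and esophagus later separate, and its dorsal and ventral regions were parted by manual dissection. Each region had 2 arrays, labelled as biological replicates. Neither the pooling of embryos nor the litters are described in those labels, so the p-values measure the spread between these arrays only. Each sample was whole tissue, epithelium and mesenchyme together, in which more cells of a type and more RNA per cell cannot be told apart.

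Glycolysis splits glucose into pyruvate, and lactate dehydrogenase then regenerates the cofactor that keeps it running when oxygen is short or growth is fast. Several steps have a general isoform and others enriched in muscle or brain. When oxygen falls, prolyl hydroxylases cease to mark HIF alpha subunits for breakdown, and HIF then binds a short DNA core and raises glycolytic enzymes, pyruvate dehydrogenase kinases and genes such as *Adm* and *Bnip3*. Early embryos develop in low oxygen and are known for active glycolysis.

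Of the 32 tested members 8 were higher in the ventral region, beside 4.09% of all 13139 tested genes, and 1 was higher in the dorsal region, beside 4.79%. In either direction this made 9 members, beside 8.88% of all tested genes. The ventral ones were the hypoxia-induced genes *Adm*, *Bnip3*, *Ddit4* and *Ankrd37*, the prolyl hydroxylase gene *Egln3*, the pyruvate dehydrogenase kinase gene *Pdk1* and the tissue-enriched isoform genes *Pgam2* and *Eno2*. *Eno2* is counted although it entered the test through the ventral arrays alone. The dorsal one was *Epas1*, which encodes an alpha subunit of HIF. The main enzymes of the pathway, among them *Gapdh*, *Aldoa*, *Ldha* and *Pgam1*, did not pass the test. The median log2 difference, dorsal minus ventral, was -0.22 over the tested members and 0.07 over all tested genes. Both ventral arrays lay above both dorsal arrays for 17 of the 32 members, beside 17.6% of all tested genes, and the reverse held for 4 members, beside 33.3%. Calls are at an adjusted p under 0.05 from limma, which takes much of each gene's spread from the other tested genes. With 2 arrays per region, the smallest two-sided p that an exact permutation test allows is 0.333.

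Some facts about the arrays touch these values. Over the tested genes, the median absolute gap between replicates was 0.26 ventrally and 0.08 dorsally. Of all tested genes, 629 were called dorsally and 538 ventrally, but 479 and 635 after a further quantile normalization. Ventral replicate 2 lay below ventral replicate 1 for 29 of 32 tested members and for 75.8% of all tested genes. The poly-A control probe sets were brighter on the arrays numbered 2, by 2.19 in the dorsal region and 1.83 in the ventral region as log2 values, and each member that passed is therefore also given as a difference within number 1 and within number 2. Foregut epithelial markers such as *Foxa2* and *Epcam* and mesenchymal ones such as *Foxf1* were well above the 40th percentile of every array, whereas *Nkx2-1* lay at 5.03 to 5.25. Of 10 tested epithelial markers 9 had the lower mean dorsally (median -0.39), with *Shh* (-2.66) and *Foxa1* (-0.63) higher ventrally and *Sox2* (0.57) higher dorsally. *Cdh1* differed by -0.53 and did not pass. Of 10 tested mesenchymal markers 5 were higher ventrally, among them *Wnt2* (-2.73) and *Bmp4* (-2.53). *Msc* (2.62) and *Wnt4* (2.47) were higher dorsally, and 3 markers, *Foxf1* included, did not pass. Of 15 tested heart muscle markers, 14 were higher in the ventral region, and the mean level of the list went from 6.04 and 6.07 in the dorsal samples to 9.41 and 9.13 in the ventral samples. *Myh6* and *Ryr2*, among the 14, entered the test through the ventral arrays alone. *Nppa* and *Myl2* of that list were below the 40th percentile of all 4 arrays. Of 4 tested liver genes 3 were higher ventrally, and of 6 tested red blood cell genes 4 were higher dorsally. The part of any of these cell types in the differences below was not tested.

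**Figure D1:**
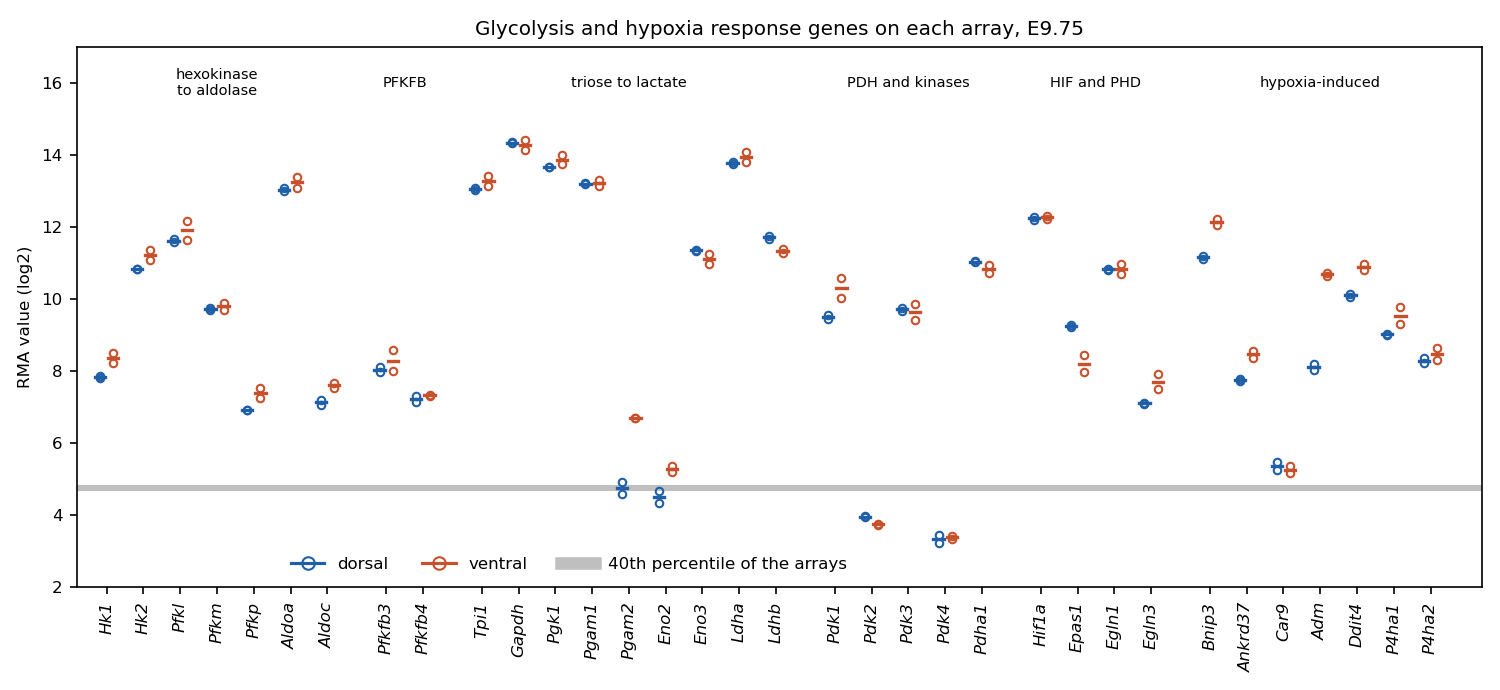
RMA values (log2, vertical axis) of the 34 members with a probe set, 1 point per array, dorsal in blue and ventral in orange, and a bar for the mean of each pair. The grey band is the range of the arrays' 40th percentiles, PDH is pyruvate dehydrogenase and PHD the prolyl hydroxylases. *Adm*, *Bnip3* and *Pgam2* stand apart between the regions, *Epas1* is higher dorsally, and *Pdk2* and *Pdk4* lie below the band.

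Among the groups of members, the hypoxia-induced genes had the median difference farthest from 0. Of 7 members, 4 were higher ventrally, beside 4.09% of all tested genes, and none was higher dorsally, beside 4.79%. The other 3 did not pass, and the median difference was -0.70. *Adm* encodes adrenomedullin, a secreted peptide that dilates vessels and acts in heart and lymphatic development. Its RMA value, a log2 measure of signal, was 8.03 and 8.18 dorsally against 10.64 and 10.73 ventrally. The regions were widely separated and the replicates of each lay close together. *Adm* was thus 5.97-fold higher ventrally, a log2 difference of -2.58 (SE, standard error of the fit, 0.17, limma adjusted p = 1.95e-10, n = 2 arrays per region), and within the numbers 1 and 2 it was -2.61 and -2.54. A further *Adm* probe set read 5.97 and 5.82 dorsally against 8.49 and 8.09 ventrally.

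*Bnip3*, whose product acts at mitochondria in mitophagy and cell death, read 11.12 and 11.20 dorsally against 12.24 and 12.05 ventrally. The gap between the regions exceeded the gap between the ventral replicates several times over. The log2 difference was -0.98 (SE 0.17, limma adjusted p = 0.000273), and within the numbers 1 and 2 it was -1.12 and -0.85. *Ddit4* encodes an inhibitor of the growth kinase mTORC1 that responds to hypoxia and other stresses. It lay at 10.07 and 10.13 dorsally against 10.98 and 10.79 ventrally, a difference of -0.79 (SE 0.17, limma adjusted p = 0.00291). *Ankrd37*, a HIF target that encodes an ankyrin repeat protein, lay at 7.72 and 7.79 dorsally against 8.55 and 8.37 ventrally, a difference of -0.70 (SE 0.17, limma adjusted p = 0.00811). For both genes the regions did not overlap, and the differences within numbers 1 and 2 were -0.91 and -0.67 for *Ddit4* and -0.83 and -0.57 for *Ankrd37*.

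The calls of *Adm* and *Bnip3* were kept under all 13 alternatives in which they were tested, with an adjusted p of at most 0.00143 and 0.0407. *Ddit4* did not pass without dorsal replicate 1 (-0.76, limma adjusted p = 0.214) or dorsal replicate 2 (-0.82, adjusted p = 0.132), and *Ankrd37* did not pass without dorsal replicate 1 (-0.67, adjusted p = 0.386) or dorsal replicate 2 (-0.74, adjusted p = 0.248). A fit without a dorsal array takes its spread from the ventral arrays alone and assumes that the remaining dorsal array varies like them.

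The 3 members of this group that did not pass were *P4ha1*, *P4ha2* and *Car9*. *P4ha1*, a subunit of the collagen prolyl hydroxylase, read 9.01 and 9.03 dorsally against 9.77 and 9.30 ventrally, a difference of -0.52 (limma adjusted p = 0.0927). It passed under 6 of 13 alternatives, among them a filter at the 60th percentile, a further quantile normalization (-0.63) and a variance trend in eBayes. The 6 include the fits without ventral replicate 1 (-0.28) or ventral replicate 2 (-0.75), which take their spread from the dorsal arrays alone. Its other probe set differed by -0.79 at a low level. *P4ha2*, a subunit of the same enzyme family, differed by -0.19 (95% interval -0.55 to 0.18) and the arrays of the regions overlapped. *Car9*, a carbonic anhydrase gene widely used as a marker of hypoxia, lay at 5.47 and 5.26 dorsally against 5.35 and 5.16 ventrally, between the 45.4th and 50.2nd percentile of the arrays. Its difference was 0.11 (95% interval -0.25 to 0.46), and the arrays of the regions overlapped.

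The promoters of the 4 hypoxia-induced genes that were higher ventrally, and of *Ldha*, a HIF target gene that did not pass the test, are shown because HIF is known to bind the cores ACGTG and GCGTG. Each runs from 250 bases before to 50 bases after the gene's start in RefSeq (GRCm38.p6), 5′ to 3′ along the gene, with matches to either core on either strand in capitals:
Adm (chr7:110627407-110627706, plus strand): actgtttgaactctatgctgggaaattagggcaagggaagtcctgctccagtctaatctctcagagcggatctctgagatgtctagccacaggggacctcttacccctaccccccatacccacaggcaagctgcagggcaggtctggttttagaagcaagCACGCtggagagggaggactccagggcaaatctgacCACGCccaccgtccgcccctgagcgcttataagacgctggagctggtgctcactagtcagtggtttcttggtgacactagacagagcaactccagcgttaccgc
Bnip3 (chr7:138909457-138909756, minus strand): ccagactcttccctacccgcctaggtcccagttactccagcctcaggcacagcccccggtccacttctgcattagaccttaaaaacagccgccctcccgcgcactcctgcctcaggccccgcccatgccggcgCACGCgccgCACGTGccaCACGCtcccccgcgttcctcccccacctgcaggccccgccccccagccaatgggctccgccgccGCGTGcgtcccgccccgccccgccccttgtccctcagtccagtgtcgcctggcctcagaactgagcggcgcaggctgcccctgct
Ddit4 (chr10:59951721-59952020, minus strand): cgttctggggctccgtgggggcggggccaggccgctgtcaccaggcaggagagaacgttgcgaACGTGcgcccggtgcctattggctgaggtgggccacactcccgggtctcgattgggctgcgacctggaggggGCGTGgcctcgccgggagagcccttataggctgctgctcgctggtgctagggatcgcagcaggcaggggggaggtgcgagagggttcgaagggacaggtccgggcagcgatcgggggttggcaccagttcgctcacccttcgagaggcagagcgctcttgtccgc
Ankrd37 (chr8:45999801-46000100, minus strand): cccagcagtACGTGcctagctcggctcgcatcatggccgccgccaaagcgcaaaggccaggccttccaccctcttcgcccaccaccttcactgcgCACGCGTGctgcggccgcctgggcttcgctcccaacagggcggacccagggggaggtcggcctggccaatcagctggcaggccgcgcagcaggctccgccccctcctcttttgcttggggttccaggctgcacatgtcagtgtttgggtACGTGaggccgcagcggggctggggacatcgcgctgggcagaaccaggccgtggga
Ldha (chr7:46845554-46845853, plus strand): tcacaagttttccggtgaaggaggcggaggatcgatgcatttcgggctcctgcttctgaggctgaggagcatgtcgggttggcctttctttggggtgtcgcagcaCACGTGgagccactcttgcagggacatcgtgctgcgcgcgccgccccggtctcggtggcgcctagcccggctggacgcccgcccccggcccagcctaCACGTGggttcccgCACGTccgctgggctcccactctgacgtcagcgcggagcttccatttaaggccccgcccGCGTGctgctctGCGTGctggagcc

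In these windows *Adm* had 2 matches, both to GCGTG on the opposite strand, where it reads CACGC, *Bnip3* had 5, *Ddit4* 2 and *Ankrd37* 4. *Ldha*, whose other start is not shown, had 7 matches, more than any of the 4 genes that differed. The palindrome CACGTG is counted once on each strand, and in *Ankrd37* a pair of matches to GCGTG on opposite strands overlap. Of the 48 promoters of 35 members in the table, 39 (81.2%) held a match to either core, beside 43.8% of the 32851 promoters of all genes. All 7 hypoxia-induced members had one, *P4ha1*, *P4ha2* and *Car9* included, as did 21 of the 28 promoters of the glycolytic enzymes. The list was defined to hold genes that HIF induces, and its promoters were not matched to the others for base composition. Overlapping windows of the same gene, as in *Aldoa* and *Eno1*, were counted separately, so the shares do not test for an excess. A match is a string of letters and not a measured binding site, and members with and without a difference both had matches. The promoters of *Pgam2* and *Eno2* had none, and no promoter of *Epas1* was available to search.

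Among the HIF regulators, an alpha subunit gene and a hydroxylase gene differed in opposite directions. *Epas1*, also called HIF-2 alpha and known from endothelium and sympathetic cells, read 9.27 and 9.21 dorsally against 8.43 and 7.98 ventrally. Both dorsal arrays lay above both ventral ones, although the ventral pair was itself spread. It was 2.05-fold higher dorsally, a log2 difference of 1.03 (SE 0.18, limma adjusted p = 0.000337), and within the numbers 1 and 2 it was 0.83 and 1.23, and it passed under all 13 alternatives. With the mean of both probe sets the difference was 0.54, since the other one, near the 40th percentile, differed by 0.04. None of 7 endothelial markers passed (median -0.07), among them *Cdh5* at 0.30 and *Kdr* at -0.42. Of 6 tested neural crest markers 5 were higher dorsally, among them *Foxd3*, which entered the test through the dorsal arrays alone. *Ednrb* was higher ventrally (-1.37). The part of neural crest cells in the *Epas1* difference was not tested.

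*Egln3*, the prolyl hydroxylase gene that HIF itself induces, read 7.11 and 7.09 dorsally against 7.91 and 7.50 ventrally. The log2 difference was -0.61 (SE 0.18, limma adjusted p = 0.0348), and within the numbers 1 and 2 it was -0.80 and -0.41. This was the weakest of the 8 ventral calls. It was lost without dorsal replicate 1 (-0.61), without dorsal replicate 2 (-0.60), without a filter on low values (-0.61) and with the mean of both probe sets (-0.44), where the adjusted p ran from 0.0775 to 0.563. *Hif1a*, the other alpha subunit gene, lay at 12.29 and 12.21 dorsally against 12.32 and 12.23 ventrally. The arrays of the regions overlapped and the difference was -0.02 (95% interval -0.37 to 0.32), with a sign that depended on the probe set. *Egln1*, the main oxygen-sensing hydroxylase, differed by -0.01 (95% interval -0.37 to 0.35).

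The steps from hexokinase to aldolase had 7 tested members, none of which passed, beside 8.88% of all tested genes in either direction. All 7 had the lower mean dorsally (median -0.40), beside 38.4% of all tested genes. *Hk1* and *Hk2* encode the hexokinases that trap glucose in the cell. *Hk1* lay at 7.81 and 7.87 dorsally against 8.50 and 8.22 ventrally, a difference of -0.52 (limma adjusted p = 0.0654), and *Hk2* differed by -0.40 (adjusted p = 0.203). The regions did not overlap for either gene. For phosphofructokinase, the committed step, the liver-type *Pfkl* differed by -0.28, the platelet-type *Pfkp* by -0.48 and the muscle-type *Pfkm* by -0.08. The aldolase genes *Aldoa* (general and muscle) and *Aldoc* (brain) differed by -0.21 and -0.47, the latter with an adjusted p = 0.0994.

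These values moved with the ventral arrays. Without ventral replicate 2 the differences were -0.66 for *Hk1*, -0.54 for *Hk2*, -0.54 for *Pfkl*, -0.62 for *Pfkp* and -0.55 for *Aldoc*. Without ventral replicate 1 they were -0.38 for *Hk1*, -0.34 for *Pfkp*, -0.40 for *Aldoc* and 0.01 for *Pfkm*. A fit without a ventral array takes its spread from the dorsal arrays alone, which lay closer together, so its calls are not listed here. With the values quantile-normalized once more, *Hk1* (-0.63), *Hk2* (-0.50), *Pfkp* (-0.58) and *Aldoc* (-0.58) passed, and *Hk1* also passed with a filter at the 60th percentile. *Pfkfb3* and *Pfkfb4*, whose enzymes set the level of the sugar phosphate that activates phosphofructokinase, differed by -0.25 and -0.10 and overlapped between the regions. *Pfkfb3* ran from -0.54 without ventral replicate 2 to 0.04 without ventral replicate 1.

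**Figure D2:**
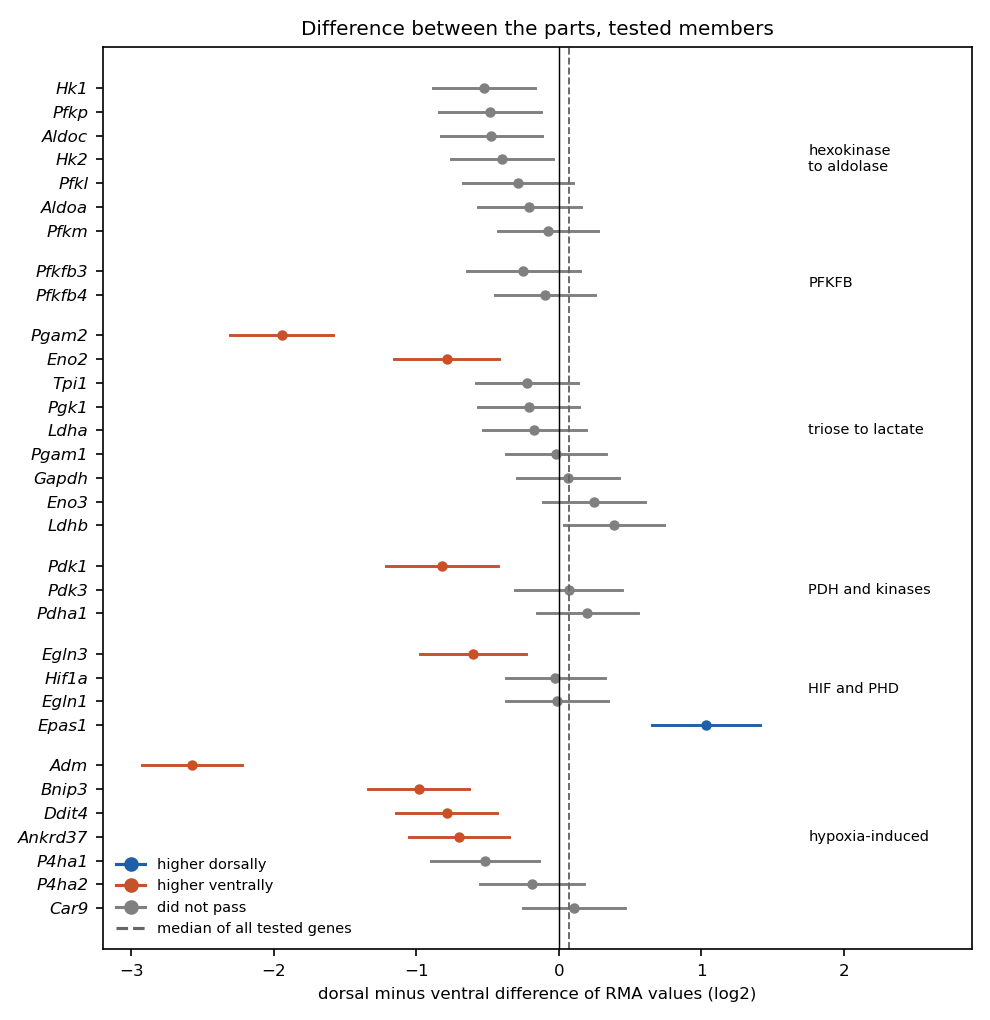
RMA difference, dorsal minus ventral (log2, horizontal axis), of the 32 tested members by role, with the 95% interval of the limma fit and the colour of the call. The dashed line is the median of all tested genes, 0.07. *Adm* lies at -2.58 and *Pgam2* at -1.95, and *Epas1* is the 1 member called higher dorsally.

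From the triose phosphates to lactate, 9 members were tested. *Pgam2* and *Eno2* were higher ventrally, beside 4.09% of all tested genes, and none was higher dorsally, beside 4.79%. *Pgam2* is the phosphoglycerate mutase of heart and skeletal muscle. It read 4.59 and 4.92 dorsally, on either side of the 40th percentile, against 6.70 in both ventral samples, a log2 difference of -1.95 (SE 0.17, limma adjusted p = 2.93e-08), and within the numbers 1 and 2 it was -2.11 and -1.78. The general mutase gene *Pgam1* lay at 13.23 and 13.18 dorsally against 13.30 and 13.15 ventrally, a difference of -0.02 (95% interval -0.37 to 0.33). *Pgam2* passed under all 13 alternatives. Beside it, the heart muscle genes *Myh6*, *Tnnt2* and *Myl4* differed by -6.16, -5.34 and -5.03. *Myh6* was below the 40th percentile on both dorsal arrays and was tested through the ventral arrays only. With its low values raised to that percentile it differed by -5.33. Of 7 skeletal muscle markers *Myod1*, *Myog*, *Myf5*, *Myf6* and *Chrna1* did not reach the filter, and *Ckm* and *Acta1* did not pass.

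*Eno2*, the enolase isoform known from neurons, lay at 4.34 and 4.66 dorsally against 5.20 and 5.38 ventrally. It was below the 40th percentile on both dorsal arrays and was tested through the ventral arrays only, so it had to differ in this direction to be tested at all. Its difference was -0.79 (SE 0.18, limma adjusted p = 0.00431), -0.86 and -0.71 within the numbers 1 and 2, or -0.56 with the dorsal values raised to that percentile, and it was lost without dorsal replicate 1 (-0.62, adjusted p = 0.502). Of 8 tested neuronal markers 6 were higher in the dorsal region and none in the ventral region. The part of neurons in the *Eno2* difference was not tested. *Eno3*, the enolase of muscle, did not pass. It lay at 11.34 and 11.37 dorsally against 11.25 and 10.96 ventrally, a difference of 0.25 (limma adjusted p = 0.480). Without ventral replicate 1 the difference was 0.39. Of the muscle-enriched isoform genes *Pgam2*, *Eno3* and *Pfkm*, 1 was thus called, beside 8.88% of all tested genes in either direction. Whether isoforms of a step differed from each other in their response was not tested.

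The other enzymes of these steps were among the brighter probe sets of each array and did not pass. *Gapdh*, often used as a reference gene, read 14.35 and 14.34 dorsally against 14.42 and 14.14 ventrally, a difference of 0.06 (95% interval -0.29 to 0.42) that was -0.09 after a further quantile normalization. Its other probe sets with that symbol alone differed by -0.06 and -0.02. *Tpi1*, *Pgk1* and *Ldha*, which encode triose phosphate isomerase, phosphoglycerate kinase and the lactate dehydrogenase subunit of glycolytic tissues, differed by -0.22, -0.21 and -0.17. For each of these 3 genes both ventral arrays lay above both dorsal ones, but ventral replicate 2 lay close to the dorsal values, as in *Ldha* with 13.76 and 13.80 dorsally and 14.09 and 13.81 ventrally. *Ldhb*, the subunit known from heart, had the higher mean dorsally, with 11.76 and 11.68 dorsally and 11.39 and 11.27 ventrally. Its difference was 0.39 (95% interval 0.04 to 0.74, limma adjusted p = 0.203), and its 4 probe sets gave 0.39 to 0.48. Without ventral replicate 1 the difference was 0.45.

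Over all 16 tested glycolytic enzymes, 2 were called ventrally, beside 4.09% of all tested genes, and none dorsally, beside 4.79%. *Eno2*, 1 of the 2, entered the test through the ventral arrays alone. Of the 16, 13 had the lower mean dorsally, beside 38.4% of all tested genes. The median difference was -0.22. It was -0.06 without ventral replicate 1, when the median of all tested genes was 0.18, and -0.35 without ventral replicate 2, when that of all genes was 9.5e-05. The median thus moved with the ventral array that was left out. After a further quantile normalization 6 of the enzymes were called ventrally, beside 635 of all 13138 tested genes.

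At the entry of pyruvate into the mitochondrion, *Pdk1* was higher ventrally. Its product phosphorylates and shuts down pyruvate dehydrogenase, and it is a HIF target. *Pdk1* read 9.44 and 9.55 dorsally against 10.03 and 10.59 ventrally, with ventral replicate 2 the higher one in this probe set. The log2 difference was -0.82 (SE 0.19, limma adjusted p = 0.00538), and within the numbers 1 and 2 it was -0.60 and -1.04. The other probe sets above the filter differed by -0.64 and -0.55, and in them ventral replicate 2 was the lower one. The call was lost without dorsal replicate 1 (-0.76, adjusted p = 0.203), without dorsal replicate 2 (-0.87, adjusted p = 0.0797) and after a further quantile normalization (-0.92, adjusted p = 0.130), while without ventral replicate 2 the difference was -0.54.

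Of the other kinases, *Pdk3* differed by 0.07 (95% interval -0.31 to 0.45) and overlapped between the regions. *Pdk2* (3.74 to 3.97), a widespread isoform, and *Pdk4* (3.23 to 3.45), known from heart and muscle, lay below the 40th percentile of every array and were not tested. *Pdha1*, the catalytic subunit that these kinases act on, differed by 0.20 (95% interval -0.15 to 0.55), or by 0.31 without ventral replicate 1.

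**Figure D3:**
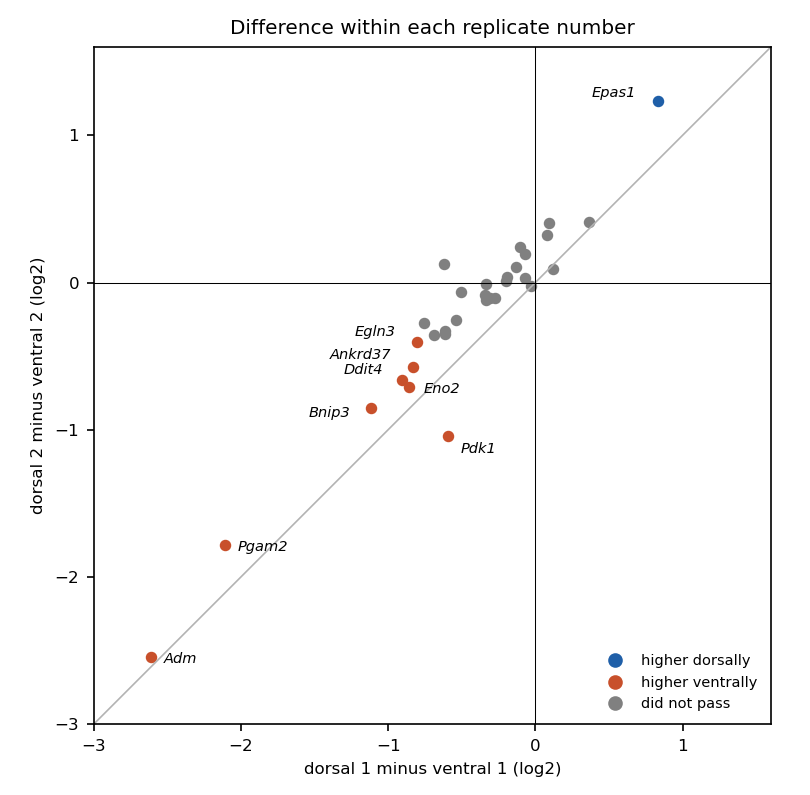
Difference within the arrays numbered 1 (horizontal axis, log2) against that within the arrays numbered 2 (vertical axis, log2) for the 32 tested members, coloured by the limma call, with a diagonal of equal values. The 8 members called higher ventrally lie below 0 on both axes and *Epas1* lies above 0 on both.

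Read probe set by probe set, with a fit over the 23336 named probe sets above the filter, 9 of the 59 tested probe sets of the members were higher ventrally, beside 2.56% of all, and 1 was higher dorsally, beside 3.28%. The 9 came from *Adm* and *Pdk1* with 2 each and from *Pgam2*, *Eno2*, *Bnip3*, *Ankrd37* and *Ddit4* with 1 each. That of *Eno2* is counted although it entered the test through the ventral arrays alone. *Egln3* did not pass in that fit (limma adjusted p = 0.0986).

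Other genes of these pathways were read from the same fit. Of 28 tested genes of glycolysis, pyruvate dehydrogenase and sugar or lactate transport, 4 were higher ventrally and none dorsally. The shares over all tested genes were 4.09% and 4.79%, and the median of the 28 was -0.05. *Slc2a3*, which encodes a high-affinity glucose transporter, lay at 11.66 and 11.61 dorsally against 13.29 and 12.98 ventrally, a difference of -1.50 (limma adjusted p = 1.52e-06). *Slc16a3*, a lactate exporter induced by HIF, differed by -1.16, the hexokinase-domain gene *Hkdc1* by -1.12 and the phosphoglucomutase gene *Pgm1* by -0.76. The call of *Pgm1* was lost without either dorsal array (adjusted p up to 0.325), and the other 3 were kept under all 13 alternatives. *Slc2a1*, the general glucose transporter gene and a HIF target, differed by -0.31 (adjusted p = 0.338), and *Pkm*, the pyruvate kinase gene, by -0.10.

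None of 10 tested genes of the HIF machinery passed, among them *Arnt*, the partner of the alpha subunits, at 0.07 and *Vhl*, which marks them for breakdown, at -0.06. Of 29 other hypoxia-induced genes, 5 were higher ventrally and 3 dorsally, beside 4.09% and 4.79% of all tested genes, with a median of -0.06. *Ndrg1*, a stress-response gene, differed by -1.22, *Pgf*, a relative of the vascular growth factor gene *Vegfa*, by -0.93 and *Mxi1*, an antagonist of Myc, by -0.66. The dorsal ones were *Selenbp1* (0.84), the collagen lysyl hydroxylase gene *Plod1* (0.82) and the carbonic anhydrase gene *Car12* (0.81). *Stc2* (-0.57) and *Hmox1* (-0.54) made up the ventral calls. Of these 8, *Plod1*, *Selenbp1*, *Car12*, *Mxi1*, *Stc2* and *Hmox1* did not pass without dorsal replicate 1 or without dorsal replicate 2, *Pgf* not without dorsal replicate 2 (adjusted p = 0.0640), and *Ndrg1* not without probe sets whose probes may match several transcripts (adjusted p = 0.395). The calls were also lost for *Plod1*, *Mxi1*, *Car12* and *Stc2* with the mean of all probe sets, for *Plod1* and *Stc2* with a further quantile normalization, for *Stc2* and *Hmox1* without a filter or with a variance trend, and for *Hmox1* with equal array medians, so that *Stc2* kept its call under 7 of 13 alternatives and *Hmox1* under 8. *Vegfa* itself lay at 8.20 and 8.08 dorsally against 8.14 and 8.34 ventrally, a difference of -0.10 (adjusted p = 0.801). Genes known to be induced by hypoxia were thus called on both sides of the anlage, and oxygen was not measured.

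**Figure D4:**
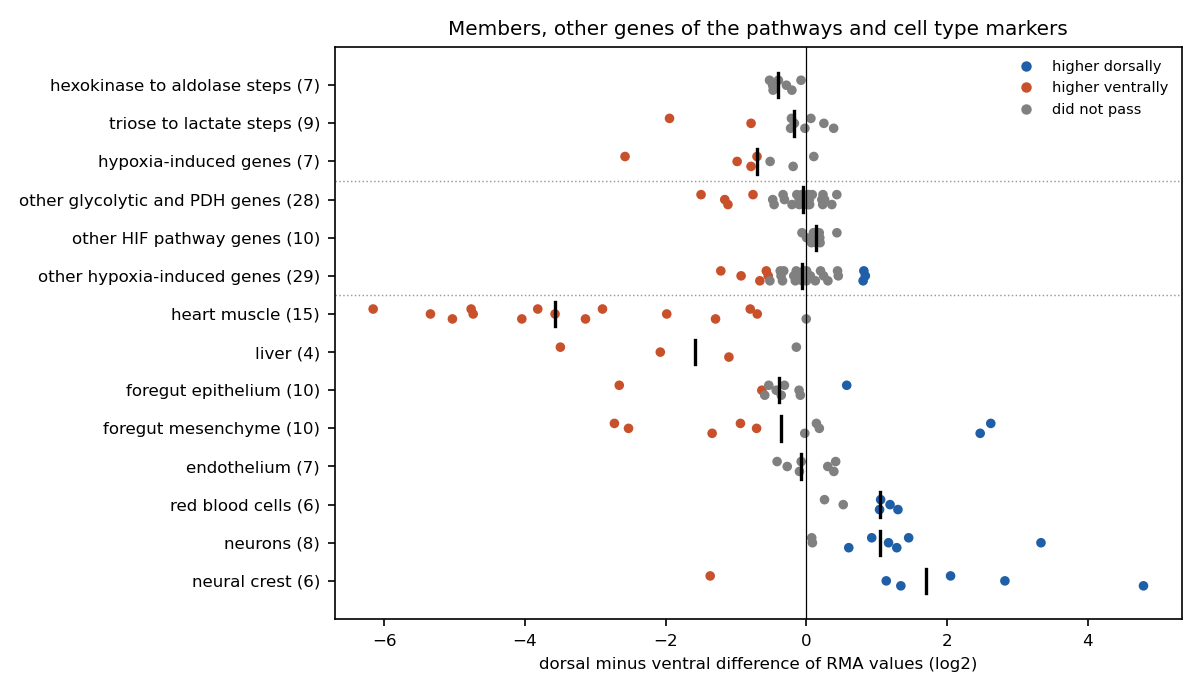
RMA difference, dorsal minus ventral (log2, horizontal axis), of each tested gene, points being genes in the colour of their call, a bar for the list's median and the number of tested genes in brackets. Members are at the top, other genes of the pathways in the middle and cell type markers at the bottom. The medians run from -3.57 for heart muscle to 1.70 for neural crest, and that of the hypoxia-induced members is -0.70.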

How the data were processed

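Affymetrix arrays measured RNA from the dorsal and ventral regions of the anlage, with group and replicate number taken from each sample's title. Per the labels, biotinylated cRNA came from 100 ng of RNA by a 2-cycle protocol. The authors summarised the scans by RMA (background correction, quantile normalization and a robust summary per probe set) and deposited values that are read as log2 here, since they run from 2.36 to 15.02. The sources used here give no software version and no detection calls. Precision is limited by having 4 arrays. No value column was left out.

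Symbols came from GEO's platform annotation and were checked in RefSeq's mouse table (GRCm38.p6). Of 45101 probe sets, 34958 had 1 symbol, 932 several and 9211 none here. The highest probe set by mean stood for each gene, and a gene was tested if it exceeded the 40th percentile of at least 2 arrays. Dorsal minus ventral differences were fitted with limma 3.58.1 (lmFit, eBayes; R 4.3.3), leaving the replicate number out of the model. The two-sided p-values were adjusted over 13139 genes by the Benjamini-Hochberg method. The procedure was tested on simulated data with the same normal spread on every array, which lack the wider gap between the real ventral replicates.

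The members and lists were chosen with earlier results of these data known. All members are named, as are the genes of the other lists that passed, up to 6 of each list by size, the rest of the 8 hypoxia-induced calls and a few well-known pathway genes after their values were seen. Markers were chosen by size or as defining genes. The 13 alternatives changed the filter, normalization, probe set, variance model and pairing or left out an array. The differences within each number, the raised low values and the counts per group were added after the data were seen.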

Additional observations from a re-analysis of the deposited data

How the results depend on the processing

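Every fit used 2 arrays per region, or 1 where an array was left out, so the calls rest on few arrays. With an array left out, the spread comes from the other region alone, which makes counts from 3 arrays hard to set against those from 4. Leaving out each array in turn gave 3 to 14 members higher ventrally (8 with all arrays), 1 to 4 higher dorsally, 1 to 6 glycolytic enzymes and 2 to 5 hypoxia-induced members higher ventrally, and a member median from -0.35 to -0.058. Over all genes it gave 247 to 4544 dorsal and 276 to 1593 ventral calls. The counts of glycolytic enzymes higher ventrally also moved with a further quantile normalization, to 6, and without probe sets whose identifiers end in _s_at, _x_at or _a_at, to 1, where fewer members could be tested. The other settings kept each of these counts within 1.5 times. The cause was not tested.

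Sign changes were confined to members that did not pass. *Hif1a* was at 0.11 with the mean of its probe sets and 0.019 without the probe sets named above, *Egln1* was at 0.10 with that mean, *Gapdh* at -0.089 with quantile normalization and -0.0026 with that mean, and *Pdk3* at -0.040 with quantile normalization. With an array left out the ranges were -0.069 to 0.020 for *Hif1a*, -0.15 to 0.12 for *Egln1*, -0.073 to 0.20 for *Gapdh*, -0.16 to 0.29 for *Pdk3*, -0.10 to 0.054 for *Pgam1*, -0.17 to 0.014 for *Pfkm*, -0.54 to 0.045 for *Pfkfb3* and -0.0014 to 0.21 for *Car9*.

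The labels share the replicate numbers 1 and 2 but do not say what a number marks. Deviations of same-numbered arrays correlated at 0.14 over the tested genes. With the replicate number as a block 10 members were higher ventrally, *Hk1* and *P4ha1* in addition, and 1 dorsally, among 678 and 790 genes in all. Both genes also passed with the filter at the 60th percentile, with a limma adjusted p = 0.0273 and 0.0328.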

Other observations

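Some probe sets of the members went another way than the one used for the gene. *Hif1a* had 4 probe sets, of which 1, not used for the gene, gave 7.61 and 6.97 dorsally against 7.27 and 6.03 ventrally, which differed by 0.64 (limma adjusted p = 0.419), whereas the used one and another differed by -0.02 and 0.02. Of the probe sets that carry *Gapdh* together with other symbols, the differences were -0.56, -0.27 and 0.09, and they were not used for the gene.

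Of 6 tested red blood cell genes, 4 were higher dorsally, with *Hba-x*, an embryonic globin gene, at 12.95 and 12.72 dorsally and at 12.19 and 11.40 ventrally, and *Slc4a1*, the anion exchanger of red cells, differing by 1.30 (limma adjusted p = 1.71e-05). The embryonic globin genes *Hbb-bh1* (0.52) and *Hbb-y* (0.26) did not pass. Of 4 tested liver genes, 3 were higher ventrally, with *Afp* at -3.50.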
